A study of Mus musculus with 32 samples.

Results

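Oxidative phosphorylation joins electron transport to ATP production in the inner mitochondrial membrane. Its nuclear genes were taken here by their symbols: those starting with Nduf followed by a, b, c, s or v, the 4 Sdh genes, those starting with Uqcr, Cox4 to Cox8 or Atp5, without pseudogenes and without rows at 0 in every library. This rule found 94 of the 24890 genes in the table. They encode subunits of complex I (Nduf), complex II (Sdh), complex III (Uqcr), complex IV (Cox, and Ndufa4 despite its symbol) and complex V (Atp5), 8 assembly factors of complex I (Ndufaf1 to Ndufaf8), and 3 genes that are no fixed subunit (Cox7a2l, Ndufa4l2, Atp5s). After the filter on low counts 90 of the 94 were tested, among 15036 genes. Cox7b2, Cox8b, Cox8c and Ndufb4c were not tested, with mean levels of 0.624, 0.0206, 0.561 and 0.31 TPM (transcript level corrected for length and library size) over all 32 libraries.

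Complexes I and II take electrons from NADH and succinate and pass them through ubiquinone to complex III, and cytochrome c carries them on to complex IV, which reduces oxygen. Complexes I, III and IV pump protons, and complex V, the ATP synthase, uses the proton gradient to make ATP. Most subunits come from the nucleus and a few from mitochondrial DNA. The mitochondrially encoded subunits have no row in the tables and were not analysed here. Mouse embryonic stem cells in the naive state use both glycolysis and respiration, and several subunits exist as paralogous isoforms that are otherwise typical of muscle, testis or hypoxic tissue.

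The libraries came from wild-type E14 mouse embryonic stem cells, 1 established line. NrESC cells were grown with T0901317 at 10 µM, which activates the oxysterol-sensing nuclear receptors called LXR, and ESC cells, labelled as control, were not. Both arms shared gelatin-coated plates, a serum medium with LIF, the GSK3 inhibitor CHIR99021 at 3 µM and the MEK inhibitor PD0325901 at 1 µM, and both were sampled at passages 0, 2, 4, 6, 8, 10, 12 and 14. Each of the 16 groups had 2 libraries of polyadenylated RNA. The labels do not say whether the 2 libraries came from separate cultures, so p-values measure only the spread between these libraries, which may be technical, and no label tells how long NrESC cells of passage 0 had been treated.

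NrESC libraries held 25062538 to 50463483 counts and ESC libraries 24989651 to 45818061. The treatment was visible in every library: Abca1, a sterol exporter and direct LXR target, had 342 to 460 CPM (counts scaled to library size with TMM factors, not corrected for length) in NrESC and 34.8 to 61.7 CPM in ESC. All 6 stem cell markers were expressed, with a summed level of 4190 to 5100 TPM in NrESC outside passage 8 and 4390 to 5380 TPM in ESC outside passage 8. The NrESC libraries of passage 8 stood apart at 3730 and 3740 TPM, against 5050 TPM in both ESC libraries of that passage. In the mean of 8 passages 2 of the 6 rose and 4 fell: Nanog averaged 1096 CPM in NrESC and 1497 CPM in ESC (-0.45) and Sox2 310.4 CPM in NrESC and 383.3 CPM in ESC (-0.32), both called lower at 8 of 8 passages, Zfp42 fell by 0.32 and was lower at 8 of 8, and Pou5f1 was higher at 8 of 8 (0.15). The part of these markers in the differences described here was not tested. Fibroblast markers summed to 22 TPM or less in every library, with Lum at 0 throughout, and primitive endoderm markers to 11.9 TPM or less.

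Unless stated otherwise, gene levels are CPM, a difference is the log2 fold change of NrESC over ESC from edgeR's quasi-likelihood test with its standard error (SE), and a gene rose or fell where its Benjamini-Hochberg adjusted p over all 15036 genes was under 0.05. The SE reflects how far the libraries within groups lay apart. Because levels also moved between passages, the mean of 8 passages and the slopes were tested a second time with passage as the unit, that is with both libraries of a group summed. In bulk RNA, fewer cells of a type and less RNA per cell cannot be told apart.

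Promoters of 7 genes that differed in opposite directions are shown first, because respiratory genes are a textbook case of shared promoter motifs and because the 3 genes for one identical protein, the c subunit of the ATP synthase, moved in opposite directions. The windows run from 250 bases before to 50 bases after the start site and come from RefSeq on GRCm38.p6, not from the mm9 build of the deposited data. A promoter was found for 76 of the 94 genes, 81 promoters in all. Capitals mark the NRF1 core (CGCATGCG, a palindrome), the ETS motif (CCGGAAG), the YY1 motif (AAGATGGCG) or the ERR motif (TCAAGGTCA), on either strand. Atp5g1 (chr11:96075582-96075881, minus strand) and Atp5g3 (chr2:73911277-73911576, minus strand) fell in the mean of 8 passages and Atp5g2 (chr15:102670998-102671297, minus strand) rose. Sdhb (chr4:140961021-140961320, plus strand), Cox6a1 (chr5:115348909-115349208, minus strand) and Ndufaf8 (chr11:120098684-120098983, plus strand) rose, while Uqcrh (chr4:116075021-116075320, minus strand) fell.
Atp5g1: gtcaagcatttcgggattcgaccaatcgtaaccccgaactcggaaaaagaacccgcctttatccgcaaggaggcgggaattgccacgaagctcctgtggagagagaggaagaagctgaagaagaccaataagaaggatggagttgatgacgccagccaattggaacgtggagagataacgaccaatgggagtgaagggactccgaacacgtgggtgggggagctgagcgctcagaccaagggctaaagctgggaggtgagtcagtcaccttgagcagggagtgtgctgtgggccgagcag
Atp5g2: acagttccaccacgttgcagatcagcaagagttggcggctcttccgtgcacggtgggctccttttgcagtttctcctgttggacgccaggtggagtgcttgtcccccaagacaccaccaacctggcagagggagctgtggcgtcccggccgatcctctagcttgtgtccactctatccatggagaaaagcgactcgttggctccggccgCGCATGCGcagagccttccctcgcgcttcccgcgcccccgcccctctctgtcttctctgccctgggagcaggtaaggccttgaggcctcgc
Atp5g3: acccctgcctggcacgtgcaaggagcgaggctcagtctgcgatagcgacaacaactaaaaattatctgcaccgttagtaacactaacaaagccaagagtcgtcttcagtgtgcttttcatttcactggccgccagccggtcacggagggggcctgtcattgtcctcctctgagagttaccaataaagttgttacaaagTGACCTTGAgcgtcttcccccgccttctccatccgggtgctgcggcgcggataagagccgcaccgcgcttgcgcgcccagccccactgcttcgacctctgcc
Sdhb: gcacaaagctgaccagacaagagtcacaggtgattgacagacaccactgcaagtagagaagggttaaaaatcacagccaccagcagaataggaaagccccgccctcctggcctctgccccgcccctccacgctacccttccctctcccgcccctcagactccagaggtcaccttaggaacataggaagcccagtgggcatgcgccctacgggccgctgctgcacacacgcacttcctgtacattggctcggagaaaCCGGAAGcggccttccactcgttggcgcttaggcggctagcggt
Cox6a1: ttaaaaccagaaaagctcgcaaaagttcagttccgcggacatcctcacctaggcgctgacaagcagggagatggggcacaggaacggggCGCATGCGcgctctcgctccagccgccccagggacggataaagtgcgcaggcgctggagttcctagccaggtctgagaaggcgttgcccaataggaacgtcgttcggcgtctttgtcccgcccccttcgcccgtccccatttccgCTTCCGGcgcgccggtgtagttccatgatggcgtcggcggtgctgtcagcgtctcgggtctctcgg
Ndufaf8: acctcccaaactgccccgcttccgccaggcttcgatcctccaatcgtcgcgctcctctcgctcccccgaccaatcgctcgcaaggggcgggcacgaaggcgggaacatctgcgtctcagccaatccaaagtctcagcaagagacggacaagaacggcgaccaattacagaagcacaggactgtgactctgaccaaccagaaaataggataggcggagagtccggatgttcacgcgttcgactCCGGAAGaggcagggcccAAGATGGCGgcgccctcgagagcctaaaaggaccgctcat
Uqcrh: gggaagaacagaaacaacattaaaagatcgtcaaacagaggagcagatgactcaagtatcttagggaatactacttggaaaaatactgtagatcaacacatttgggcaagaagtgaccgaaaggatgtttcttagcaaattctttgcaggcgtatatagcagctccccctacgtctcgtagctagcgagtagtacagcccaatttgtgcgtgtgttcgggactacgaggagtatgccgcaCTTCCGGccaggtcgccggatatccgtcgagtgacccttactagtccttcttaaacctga

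The 3 c-subunit promoters differ: Atp5g2 holds the NRF1 core, Atp5g3 the ERR motif on the other strand, and Atp5g1 none of the 4. The ETS motif stands in Sdhb, Cox6a1 and Ndufaf8 and also in Uqcrh, so it occurs on both sides of the difference. Among the 81 promoters 11 held the NRF1 core (13.6%, against 1.87% of all 32851 promoters of that length), 18 the ETS motif (22.2% against 8.86%), 8 the YY1 motif (9.88% against 1.4%) and 2 the ERR motif (2.47% against 0.423%). The LXR DR4 element is the site type bound by LXR with its partner RXR. Its exact form, AGGTCA repeated after 4 bases, was found in 0 of the 81. As only 5 of all 32851 promoters (0.0152%) held it, this 0 does not show that LXR sites are absent. In 5 genes the NRF1 core and the ETS motif occurred together. The median GC content was 58.3% in the 81 promoters and 52.7% in all. A match describes these letters in this window and is no measurement of binding.

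The summed level was highest for complex V and lowest for complex II. Summed over its 37 subunit genes, complex I averaged 8237 ± 264 TPM in NrESC and 7881 ± 170 TPM in ESC (SD over 8 passages). The 4 genes of complex II summed to 590.7 ± 27 TPM in NrESC and 546.7 ± 15.3 TPM in ESC. For the 8 genes of complex III the sums were 3702 ± 103 and 3652 ± 110 TPM, for the 18 of complex IV 10570 ± 401 and 10080 ± 253 TPM, and for the 16 of complex V 11550 ± 156 and 11610 ± 221 TPM, NrESC given before ESC each time. In the mean over passages complexes I, II and IV were thus 1.045, 1.08 and 1.048 times as high in NrESC, with higher group means at 8 of 8 passages each. The size varied: the log2 differences of complexes I and IV were 0.0065 and 0.0124 at passage 6 and 0.162 and 0.202 at passage 8. Complex III was 1.014 times as high, higher at 6 of 8 passages, and complex V 0.9949 times, higher at 2 of 8. These sums have no test. Summed as CPM, an alternative added after the data were seen that gives long transcripts more weight, the mean log2 difference of complex III was 0.106 in place of 0.0194 and that of complex V 0.00943 in place of -0.00741.

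**Figure D1:**
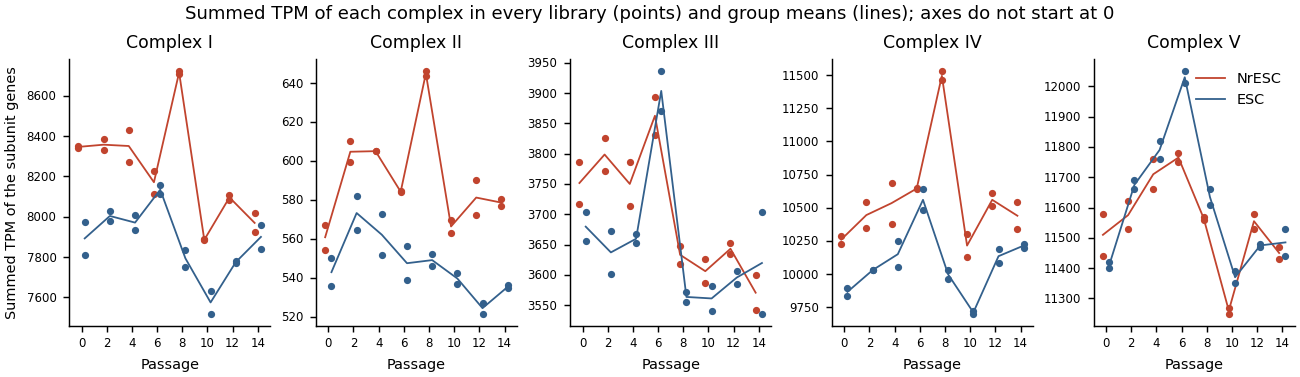
Summed TPM of the subunit genes of each complex (y axis, not starting at 0) by passage (x axis) in NrESC and ESC, with 1 point per library and lines through the group means. Group means of complexes I, II and IV lie higher in NrESC at all 8 passages, with the highest at passage 8 (8717, 645 and 11500 TPM). Those of complex V lie higher at 2 of 8. Single libraries of complex I overlap between the arms at passages 6 and 14.

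Within complexes the levels were uneven. Atp5b, the catalytic beta subunit of the ATP synthase head, was the highest of all at 2241 TPM over the 32 libraries, and Atp5e, its epsilon subunit, the lowest of complex V at 9.25 TPM on 17 to 54 counts a library. Cox7c led complex IV at 1641 TPM, Uqcr10 complex III at 971.9 TPM, Ndufa7 complex I at 750.3 TPM and Sdhb complex II at 161.2 TPM. At the low end stood Sdhc at 128.1 TPM, Uqcrq at 133.9 TPM, Ndufs5 at 3.05 TPM and Cox6a2 at 0.533 TPM. Levels per length of the shortest genes are uncertain, since the length implied by the deposited counts and TPM was only 3.1% of the median gene for Atp5k. Ndufs5 is uncertain as well: it was at 0 in 8 of 32 libraries and had 9.89 to 63.4 counts in the others, and 21.7% of its 50-base words occur in another gene, so its log2 difference of -1.45 (SE 0.48, adjusted p = 0.00615 in edgeR) is listed without further reading.

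In the mean of all passages most respiratory genes were slightly higher with T0901317. Of the 90 tested, 57 rose and 16 fell, where 39.1% of all tested genes rose and 39.8% fell. Their median difference was 0.06, against -0.001 over all genes. When passages were the unit, 37 were higher and 8 lower, each of them also called with library as the unit, where 28.3% of all genes rose and 27.2% fell. Without passage 8 the counts were 48 higher and 18 lower (5654 and 5625 of all genes). In limma on TPM they were 45 higher and 25 lower (5455 and 6289 of all genes). By sign alone, 29 were higher at 8 of 8 passages and 4 lower at 8 of 8, while over all genes 3015 were higher and 2712 lower at every passage. In all, 6 of the 90 were called higher at each of the 8 passages: Uqcrq, Ndufaf7, Ndufa7, Ndufa2, Ndufb8 and Sdhc. Among those lower at 8 of 8, Ndufaf2 and Ndufs1 were called at 4 passages each and Ndufa5 at 1. Atp5j, Atp5l, Atp5o, Ndufa9 and Ndufaf5 were called at no passage. These short lists were named after their values were seen, and calls at every passage or at none were not counted over all genes.

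**Figure D2:**
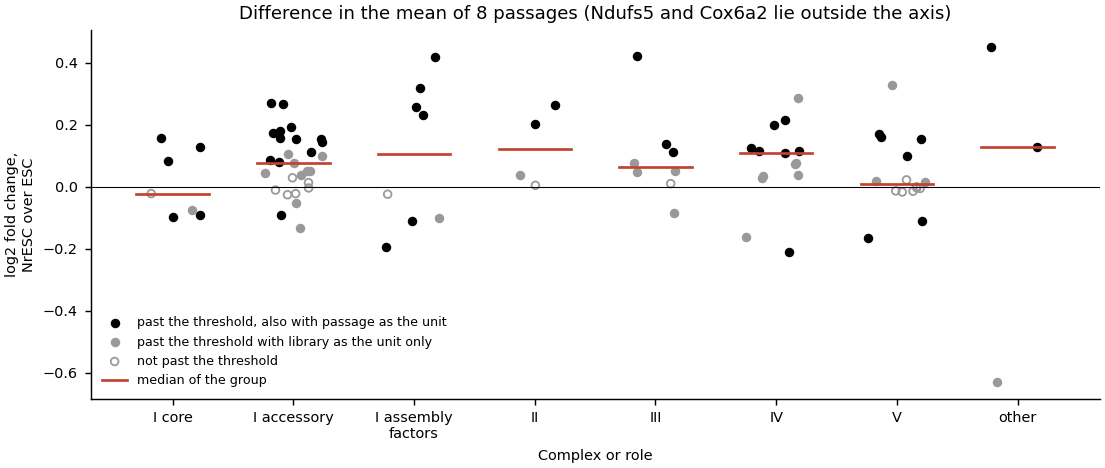
Log2 fold change of NrESC over ESC in the mean of 8 passages (y axis) for each tested gene (points), by complex or role (x axis), with the median of each role as a red line. Medians lie above 0 for every role but the complex I core (-0.02), and that of complex V is 0.01; Ndufs5 and Cox6a2 lie outside the axis.

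The catalytic core of complex I gave equal counts in both directions, near the shares of all genes. Of the 7 nuclear core subunits 3 rose and 3 fell, with a median of -0.02. Ndufs8, which holds iron-sulfur clusters on the electron path to the quinone, had 39.6 to 63.9 CPM in NrESC (median 49.3, n = 16) and 35.4 to 59.97 CPM in ESC (median 41.9, n = 16). The arms overlapped, and its difference was 0.16 (SE 0.016, adjusted p = 5.34e-12 in edgeR). Ndufs1, the largest subunit of the NADH-oxidizing module, averaged 147.5 ± 5.37 CPM in NrESC and 158 ± 6.54 CPM in ESC (SD over 8 passages). In the mean it fell by 0.10 on the log2 scale. It was lower by sign at 8 of 8 passages and called lower at 4. Ndufs1 was named after its values were seen. Ndufs8, Ndufs7 and Ndufv1 rose and Ndufs1 fell with passage as the unit too.

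The accessory subunits of complex I were mostly higher. Of 29 tested, 19 rose and 4 fell, with a median of 0.08, and 12 rose and 1 fell with passage as the unit. Ndufa7, a subunit of the peripheral arm, had 124.5 to 167 CPM in NrESC (median 143.0) and 106 to 135 CPM in ESC (median 115). At each passage both NrESC libraries lay above both ESC libraries, and the difference was 0.27 (SE 0.016, adjusted p = 5.05e-19 in edgeR). For Ndufa2, another peripheral-arm subunit, the arms did not overlap at all, with 45.6 to 57.0 CPM in NrESC (median 50.03) and 37.1 to 45.4 CPM in ESC (median 42.0), a difference of 0.27 (SE 0.021). The Ndufb genes, whose products sit in the membrane arm, leaned one way: of 10 tested 8 rose, all differences lay between 0.01 and 0.18, and 6 of the 10 were higher at 8 of 8 passages and rose with passage as the unit. This grouping by letter was made after the values were seen. On the lower side stood Ndufv3, a small subunit of the NADH-oxidizing module, whose mean difference of -0.13 (SE 0.014) was not past the threshold with passage as the unit (adjusted p = 0.0808). Ndufa13 was not called in the mean at -0.02 (adjusted p = 0.224 in edgeR). It was called lower without passage 8, at -0.05 (adjusted p = 0.0124 in edgeR), and in limma on TPM, at -0.04 (adjusted p = 0.0331). Without replicate 1 of ESC passage 12 its difference was -0.03.

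Assembly factors of complex I moved in both directions, by more than most subunits. Of 8 tested, 4 rose, 3 fell and Ndufaf5 was not called at -0.02, counts near the shares of all genes (39.1% rose and 39.8% fell). Ndufaf7, a methyltransferase needed for complex I assembly, had 19.2 to 25.5 CPM in NrESC (median 22.0) and 15.0 to 17.8 CPM in ESC (median 16.3). The arms did not overlap, and its difference was 0.42 (SE 0.027, adjusted p = 5.09e-18 in edgeR). Ndufaf8 rose by 0.32 (SE 0.039), Ndufaf3, which acts in early assembly, by 0.26 and Ndufaf6 by 0.23. Ndufaf2, a paralog of the subunit Ndufa12, averaged 11.8 ± 0.847 CPM in NrESC and 13.6 ± 1.39 CPM in ESC and fell by 0.19 (SE 0.031), lower at 8 of 8 passages. Ndufaf4, the partner of Ndufaf3, fell by 0.11 and Ndufaf1 by 0.10, the last not past the threshold with passage as the unit (adjusted p = 0.0759).

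In complex II the iron-sulfur subunit and 1 membrane anchor rose while the other anchor did not. Sdhb, the iron-sulfur subunit, had 77.5 to 108.9 CPM in NrESC (median 87.8) and 66.9 to 86.0 CPM in ESC (median 73.9). Its values overlapped between arms but not within any passage, and it rose by 0.26 (SE 0.014, adjusted p = 1.28e-20 in edgeR). Sdhc, an anchor, rose by 0.20 (SE 0.014) and was called at all 8 passages. Sdha, the flavoprotein that oxidizes succinate, differed by 0.04 (SE 0.0095), called with library as the unit and not with passage as the unit (adjusted p = 0.341) nor without passage 8, at 0.01 (adjusted p = 0.208). Sdhd, the second anchor, averaged 95.5 CPM in NrESC and 95.3 CPM in ESC, a difference of 0.005 (SE 0.013, adjusted p = 0.735).

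Complex III held the gene with the smallest adjusted p of the set. Uqcrq, a small subunit near its quinone site, had 105.4 to 137.9 CPM in NrESC (median 121) and 78.7 to 103.9 CPM in ESC (median 87.7). No NrESC library was as low as any ESC library, and the difference was 0.42 (SE 0.014, adjusted p = 7.59e-28 in edgeR, and 9.28e-06 with passage as the unit). It ran from 0.32 at passage 14 to 0.61 at passage 8. Of the 8 tested genes 6 rose and 1 fell, with a median of 0.06. The core proteins Uqcrc1 and Uqcrc2 rose by 0.14 (SE 0.009) and 0.11 (SE 0.010), and the highest gene of the complex, Uqcr10, was not called at 0.01 (adjusted p = 0.488). Uqcrh, the hinge protein, was the one that fell, by 0.08 (SE 0.013), and was not past the threshold with passage as the unit (adjusted p = 0.124).

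Most nuclear subunits of complex IV, cytochrome c oxidase, rose by small amounts. Of 15 tested 13 rose and 2 fell, with a median of 0.11, and 7 rose and 1 fell with passage as the unit. Cox4i1, the main subunit 4, had 467 to 550.6 CPM in NrESC (median 525) and 435 to 529.5 CPM in ESC (median 459.9), with no overlap at any passage and a difference of 0.13 (SE 0.0086). Cox6c and Cox6a1 rose by 0.21 and 0.20 (SE 0.012 each). Cox5a, Cox6b1, Cox7a2, Cox7b and Ndufa4 differed by 0.03 to 0.08 and were not past the threshold with passage as the unit. Of these, Cox5a, Cox7a2 and Cox7b were not called in limma on TPM. Cox7b also lost its call in DESeq2 and without passage 8, at 0.005. Cox6b1 (0.03) lost its call with RLE scaling, in DESeq2 and without passage 8, at 0.01, and was -0.01 in limma on TPM. Its call was lost without each of 7 single libraries in turn, at 0.0199 to 0.0268.

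Complex V had the median closest to 0. Of 16 tested 7 rose and 2 fell, the median was 0.01, and 4 rose and 2 fell with passage as the unit. The 2 subunits of the catalytic head, Atp5b and Atp5a1, both differed by 0.02: Atp5b averaged 2246 ± 128.5 CPM in NrESC and 2218 ± 94.6 CPM in ESC, which is within the spread between passages, and its call (adjusted p = 0.0117 in edgeR) was lost with passage as the unit, without passage 8, with RLE scaling and in DESeq2, and the value was -0.00107 in limma on TPM. Differences of 0.15 or more stood in the stalk and membrane part. Atp5d, of the central stalk, averaged 195.8 ± 14.7 CPM in NrESC and 176.2 ± 15.8 CPM in ESC and rose by 0.15 (SE 0.014), and Atp5mpl, a small proteolipid, rose by 0.17 (SE 0.017). Both were higher at 8 of 8 passages and were named after their values were seen. Atp5e differed by 0.33 (SE 0.11), which rests on few counts and was not past the threshold with passage as the unit (adjusted p = 0.0604).

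Of the 3 genes outside the fixed subunits, Atp5s, a coupling factor of the ATP synthase, had the highest called mean difference among genes of the set whose mean log2 CPM reached 1. It had 4.32 to 6.83 CPM in NrESC (median 5.14) and 2.65 to 6.24 CPM in ESC (median 3.85), and rose by 0.45 (SE 0.051, adjusted p = 1.36e-10 in edgeR). Cox7a2l, which joins complexes III and IV into supercomplexes, rose by 0.13 (SE 0.017). Ndufa4l2 fell by 0.63 (SE 0.032) in the mean but was higher at 1 passage.

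The c subunit of the ATP synthase is made from 3 genes that encode the same mature protein behind different import sequences. Atp5g1 had 139 to 182.6 CPM in NrESC (median 160.1) and 157 to 206.6 CPM in ESC (median 177), and fell by 0.16 (SE 0.013). Atp5g3 averaged 257.6 ± 19.4 CPM in NrESC and 277.4 ± 11.9 CPM in ESC and fell by 0.11 (SE 0.012). Atp5g2 had 119.9 to 153 CPM in NrESC (median 132) and 114 to 149.9 CPM in ESC (median 120.1), and rose by 0.10 (SE 0.012). The arms overlapped across passages for all 3, but Atp5g2 was higher in both NrESC libraries at every passage, and the 3 calls held with passage as the unit. As a share of the summed TPM of the 3, Atp5g2 took 28.6% ± 1.64 in NrESC and 25.6% ± 1.52 in ESC (SD over 8 passages), higher at 8 of 8. Atp5g1 took 24.6% ± 1.1 in NrESC and 26.3% ± 1.71 in ESC, lower at 8 of 8, and Atp5g3 46.8% in NrESC and 48.2% in ESC. Of the 50-base words of Atp5g2, 38.3% also occur in other genes, so its level depends on how shared reads were divided.

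Paralogous isoforms of complex IV kept their ranks in both arms. Cox7a1, the isoform named for heart and muscle, fell by 0.21 (SE 0.030, adjusted p = 0.00767 with passage as the unit in edgeR), and its share of the summed Cox7a TPM was 69% ± 2.37 in NrESC and 73.3% ± 3.44 in ESC, lower at 8 of 8 passages. Its partner Cox7a2 was above ESC by 0.08. That share rests on a length for Cox7a1 of 4.8% of the median gene, while in CPM Cox7a2 was the higher of the pair, at 26.8 against 14.7 CPM in NrESC and 25.5 against 17.1 CPM in ESC. Cox6b2, the testis isoform, differed by -0.16 (SE 0.025, adjusted p = 0.0534 with passage as the unit) and took 10% of its pair in NrESC and 11.1% in ESC. Cox4i2 took 0.708% ± 0.153 of its pair in NrESC and 0.685% ± 0.308 in ESC, and the testis isoforms Cox7b2 and Cox8c took 0.169% and 0.0381% of their sets in NrESC and 0.235% and 0.0669% in ESC. Cox6a2, the muscle isoform, was almost absent except in the NrESC libraries of passage 8, with 45 and 34 counts there, 0 to 11 counts in the 14 other NrESC libraries and 0 to 4 counts in the 16 ESC libraries. Its mean difference of 1.99 (SE 0.5, adjusted p = 0.000407 in edgeR) was not called without replicate 2 of NrESC passage 6, at 1.59 (adjusted p = 0.999). At passage 8 alone its difference was 4.48 (SE 0.69, adjusted p = 2.87e-07 in edgeR).

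The difference between the arms was not constant over passages. It varied among the 8 passages for 67 of the 90 genes, against 69.4% of all tested genes. At passage 0 the 90 genes gave 16 higher and 14 lower (17.6% and 14.8% of all genes), and at passage 2, 27 higher and 9 lower (24.7% and 23.8%). Passage 4 gave 48 higher and 5 lower (27.4% and 26.9%), and passage 6, 21 higher and 18 lower (23.6% and 25.1%). In limma on TPM passage 4 gave 26 higher and 14 lower, where 2961 of all genes were higher and 5269 lower. At passage 8 the counts were 55 higher and 9 lower (35.2% and 34.6%), at passage 10, 29 higher and 15 lower (27% and 28.5%), at passage 12, 26 higher and 9 lower (23.1% and 24%), and at passage 14, 21 higher and 7 lower (19.7% and 21.3%). The median difference was 0.12 at passage 4 and 0.17 at passage 8, and between 0.03 and 0.05 at the other 6. Several counts rest on single libraries: 27 were higher at passage 4 without replicate 2 of NrESC, 9 at passage 6 without replicate 2 of ESC, and 17 at passage 12 without replicate 1 of ESC. At passage 12, 4 were lower without replicate 2 of ESC. At passage 0, 7 were lower without replicate 1 of ESC and 9 without each of the other 3 libraries in turn.

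**Figure D3:**
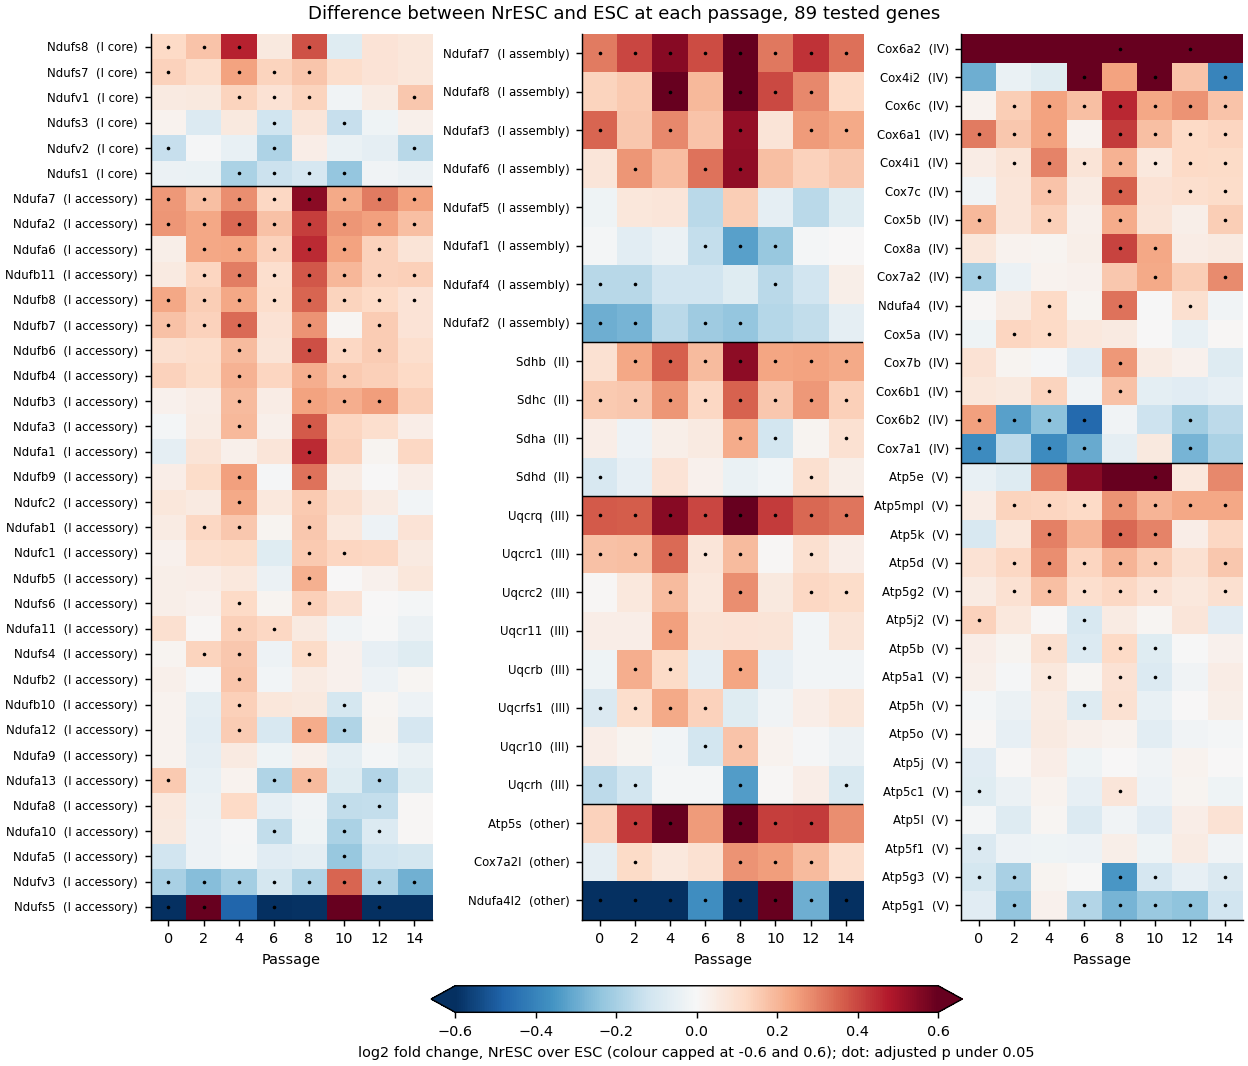
Log2 fold change of NrESC over ESC (colour, capped at -0.6 and 0.6) for 89 of the 90 tested genes (rows, by complex or role) at each passage (columns), with a dot where the adjusted p was under 0.05. Passages 4 and 8 hold the most genes that were higher (48 and 55), and Ndufa4l2 and Ndufv3 are higher at passage 10 alone.

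At passage 0 the highest called genes were Uqcrq (0.37, SE 0.039), Ndufaf3 (0.35, SE 0.088) and Cox6a1 (0.31, SE 0.035), and the lowest Ndufa4l2 (-1.13, SE 0.098), Cox7a1 (-0.38, SE 0.087) and Ndufaf2 (-0.29, SE 0.085). Cox6a1 had 184.5 and 175.7 CPM in NrESC and 146 and 143 CPM in ESC, without overlap. The call of Ndufaf3 was lost without replicate 2 of ESC (0.23, adjusted p = 0.0794), and that of Ndufaf2 without replicate 1 of ESC (-0.25, adjusted p = 0.0959) or of NrESC (-0.23, adjusted p = 0.0873). At passage 14 the highest were Ndufaf7 (0.33, SE 0.077), Uqcrq (0.32, SE 0.040) and Cox7a2 (0.28, SE 0.083), and the lowest Ndufa4l2 (-0.70, SE 0.069), Cox4i2 (-0.40, SE 0.13) and Ndufv3 (-0.29, SE 0.039). Without replicate 1 of ESC passage 14 neither Cox7a2 (0.23, adjusted p = 0.102) nor Cox4i2 (-0.37, adjusted p = 0.0884) was called, and Cox4i2 was also lost without replicate 1 of NrESC (-0.35, adjusted p = 0.0781).

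Among genes of the set whose mean log2 CPM reached 1, the widest span over groups belonged to Ndufa4l2, a paralog of the complex IV subunit Ndufa4 that is induced by hypoxia and restrains complex I in mouse cells. Among the 16 groups it spanned 10.2-fold, whereas the median SD over groups on the log2 scale was 0.108 for the 87 genes of this set whose mean log2 CPM reached 1 and 0.173 for the 11605 such genes in all. At passage 0 it had 5.20 and 5.17 CPM in NrESC and 11.5 and 11.3 CPM in ESC. At passage 8 it had 3.09 and 3.10 CPM in NrESC, its lowest values, and 11.5 and 10.4 CPM in ESC. At passage 10 the order turned, with 25.9 and 28.5 CPM in NrESC and 7.89 and 8.76 CPM in ESC. By passage 14 it was 18.7 and 20.8 CPM in NrESC and 32.4 and 31.5 CPM in ESC.

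At each passage the 2 arms did not overlap for Ndufa4l2. The difference was -1.13, -1.12, -1.31, -0.37 and -1.82 at passages 0, 2, 4, 6 and 8, then 1.71 (SE 0.079, adjusted p = 8.84e-22 in edgeR) at passage 10, and -0.29 and -0.70 at passages 12 and 14, all called. In the mean with passage as the unit it was -0.65 and not past the threshold (adjusted p = 0.0829). Ndufa4 itself, the stable subunit, averaged 172 CPM in NrESC and 164 CPM in ESC.

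Cox4i2, the isoform of subunit 4 typical of lung and hypoxic cells, also differed most at passage 10. There it had 4.33 and 4.11 CPM in NrESC and 1.14 and 1.27 CPM in ESC, a difference of 1.82 (SE 0.16, adjusted p = 1.48e-12 in edgeR). At passage 6 it had 2.77 and 2.93 CPM in NrESC and 1.39 and 1.68 CPM in ESC (0.86, SE 0.17). At passages 0, 2, 4, 8 and 12 it was not called, and in the mean with passage as the unit its 0.25 was not past the threshold (adjusted p = 0.312). Ndufv3 showed the same turn at passage 10, with 74.0 and 74.5 CPM in NrESC and 57.3 and 59.3 CPM in ESC (0.35, SE 0.039), and was lower in NrESC at the other 7 passages, by -0.10 to -0.29. In NrESC passage 10 had the highest group mean of the arm for Ndufa4l2 (27.2 CPM) and Ndufv3 (74.3 CPM), while Cox4i2 had 4.22 CPM at passage 10 and 4.21 CPM at passage 12, and in ESC all 3 genes were lower at passages 6 and 10 than at passages 4 and 12.

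**Figure D4:**
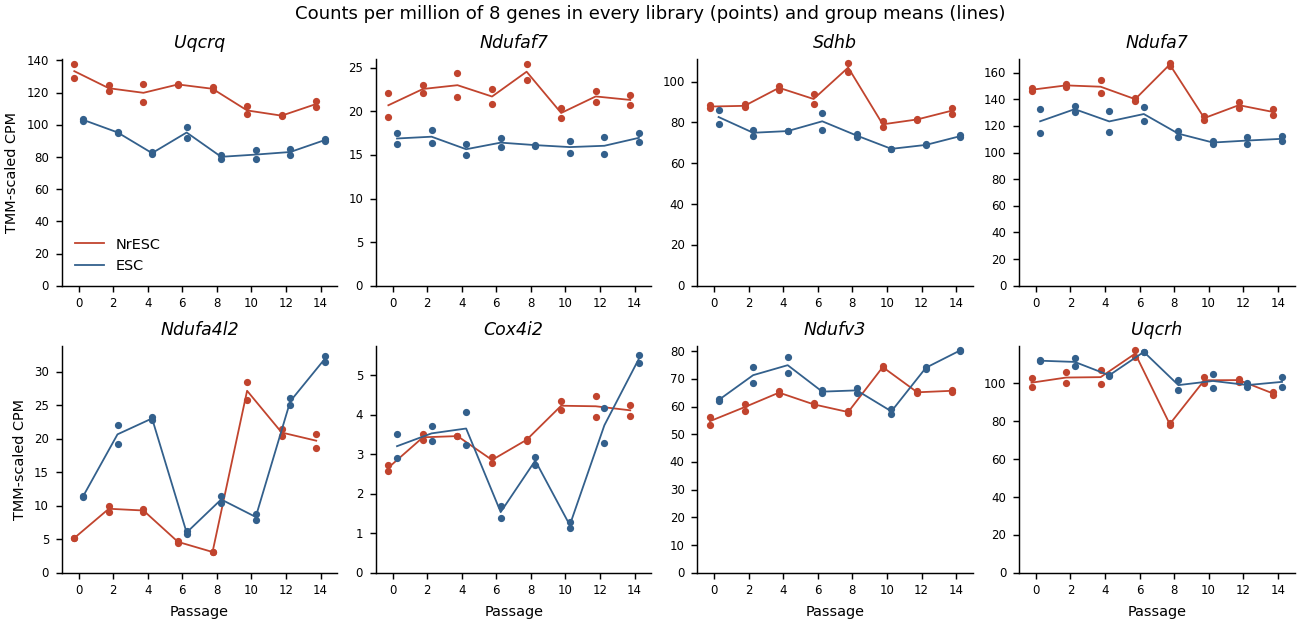
TMM-scaled CPM (y axis, from 0) by passage (x axis) in NrESC and ESC for 8 genes, with 1 point per library and lines through the group means. Uqcrq and Ndufaf7 separate in every library, while Ndufa4l2 crosses over at passage 10 (25.9 and 28.5 CPM in NrESC, 7.89 and 8.76 CPM in ESC) and Uqcrh drops at passage 8 in NrESC.

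Passage 8 of NrESC stood apart within its own arm, where stem cell markers were low. Of the LXR targets, Abcg1, a second sterol exporter, was higher there by 0.97 than at NrESC passages 6 and 10, while Abca1 fell by 0.14 and had its smallest difference from ESC (2.70). Set against the mean of NrESC passages 6 and 10, 45 of the 90 genes were higher and 14 lower (36.9% and 32.8% of all genes). The same contrast in ESC gave 4 higher and 36 lower (22.4% and 22.3%), of which 18 were lower without replicate 1 and 22 without replicate 2 of ESC passage 8. The step was greater in NrESC than in ESC for 48 genes and smaller for 6, where 24.4% and 25.2% of all genes were. Complex IV had the most one-sided step in NrESC, with 11 of 15 higher. Complex V had 5 higher and 4 lower of 16.

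Sdhb had 108.9 and 104.8 CPM at NrESC passage 8, 88.9 and 94.1 CPM at NrESC passage 6 and 80.6 and 77.5 CPM at NrESC passage 10. Its step was 0.33 (SE 0.033) in NrESC and 0.006 (SE 0.035) in ESC, a difference of 0.32 (SE 0.048, adjusted p = 3.33e-07 in edgeR). Atp5s (0.46, SE 0.11), Ndufaf6 (0.41, SE 0.066) and Cox6b2 (0.39, SE 0.061) also rose at that step, and each differed from ESC. In the other direction Uqcrh had 79.0 and 78.0 CPM at NrESC passage 8, below every other library of the series, and fell by 0.47 (SE 0.033) in NrESC beside a step of -0.13 (SE 0.032) in ESC. Atp5g3 fell by 0.32 (SE 0.030), with a step of -0.02 in ESC. Ndufa4l2 fell by 1.85 (SE 0.10) in NrESC and its ESC step was 0.63 (SE 0.080). Ndufaf1 fell by 0.30 (SE 0.050) in NrESC and by 0.16 in ESC, and these steps did not pass the test of their difference (adjusted p = 0.0855). Against ESC of the same passage the highest were Atp5s (0.85, SE 0.14), Uqcrq and Ndufaf8 (0.61 each), and the lowest Ndufa4l2 (-1.82), Atp5g3 (-0.35, SE 0.035) and Uqcrh (-0.33, SE 0.038).

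**Figure D5:**
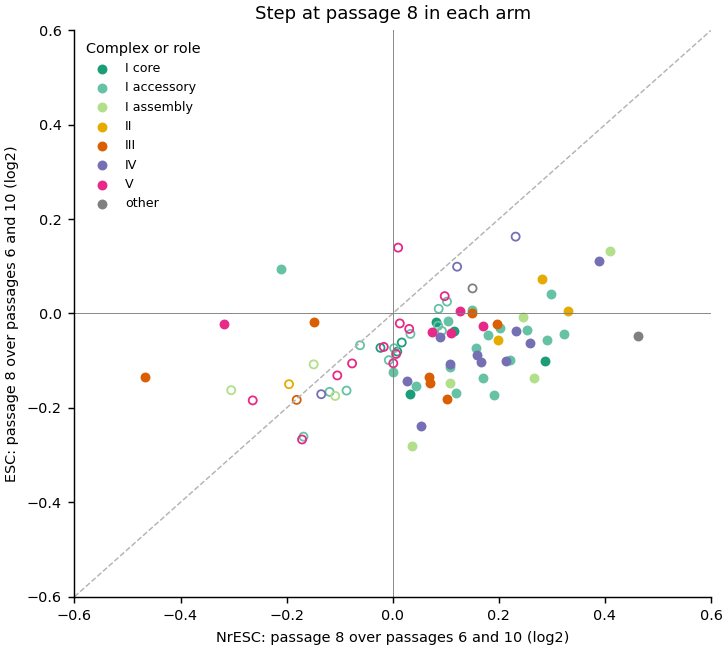
Log2 step from passages 6 and 10 to passage 8 in NrESC (x axis) and ESC (y axis) for 86 genes, coloured by complex or role, filled where the difference of the steps had an adjusted p under 0.05, with the line of equal steps dashed. The step was greater in NrESC for 48 genes, and Uqcrh and Atp5g3 lie far to the left; Cox4i2, Cox6a2, Ndufa4l2 and Ndufs5 lie outside the axes.

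The summed levels of fibroblast and of primitive endoderm markers were higher in the NrESC libraries of passage 8. Those of trophectoderm markers stayed within the range of their arm. Fibroblast markers, 8 of 8 in the table and 5 tested, summed to 21.6 and 22 TPM at NrESC passage 8, 9.86 to 16.9 TPM at other NrESC passages and 8.8 to 17.2 TPM in ESC. Primitive endoderm markers summed to 11.7 and 11.9 TPM, against 5.68 to 9.15 TPM at other NrESC passages and 5.6 to 9.39 TPM in ESC. Against ESC of passage 8, 3 of 5 tested fibroblast markers rose and 0 fell. Of 5 tested primitive endoderm markers 3 rose and 1 fell. Pdgfra stood in both lists, so the sums are not independent. Trophectoderm markers summed to 114 and 117 TPM, within the 102 to 152 TPM of other NrESC passages, and to 69 to 104 TPM in ESC. Against ESC of passage 8, 3 of the 5 tested rose and 2 fell. Over 8 passages Krt8 averaged 70.5 CPM in NrESC and 35.8 CPM in ESC. Cdx2 (0.767 against 1.84 CPM) and Gata3 (0.522 against 1.99 CPM) were lower in NrESC. The part of the 3 marker lists in the passage 8 values was not tested.

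Over passages most respiratory genes had slopes below 0 in both arms. The slope in log2 per passage was below 0 for 56 and above 0 for 5 of the 90 genes in NrESC (31.3% and 28.6% of all genes), and for 60 and 4 in ESC (28.2% and 27.2%), past the threshold in each case. Without replicate 2 of NrESC passage 4 the upward count in NrESC was 8. All 8 complex III and all 4 complex II genes were among those falling in both arms. With passage as the unit, 5 fell in NrESC (1.66% of all genes; Atp5g2, Ndufb7, Ndufs4, Ndufs6 and Uqcrc1, with 23 at an unadjusted p under 0.05) and 0 rose (0.745% of all genes, 1 unadjusted). In ESC 0 fell (0.259% of all genes, 21 unadjusted) and 0 rose (0.219%, 0 unadjusted), both in edgeR. DESeq2, with library as the unit, gave counts within 1.5 times of the first ones.

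Among single genes, Ndufs8 had 63.3 and 63.9 CPM at passage 0 and 43.3 and 43.2 CPM at passage 14 in NrESC, a slope of -0.039 (SE 0.0023), and in ESC 57.3 and 59.97 CPM at passage 0 and 42.3 and 40.1 CPM at passage 14, a slope of -0.026 (SE 0.0025). Uqcrc1 had a slope of -0.027 (SE 0.0014) in NrESC, and Cox6b2 one of -0.034 (SE 0.0038) in NrESC and -0.025 (SE 0.004) in ESC. Cox7a2 had a slope of -0.024 (SE 0.0045) in ESC. Upward slopes were led by Ndufa4l2 in both arms, at 0.14 in NrESC and 0.050 in ESC, and by Cox4i2 (0.042) in NrESC. Ndufv3 (0.018 in NrESC, 0.010 in ESC) and Cox5a (0.009 in ESC) followed. Of these slopes, that of Uqcrc1 in NrESC was past the threshold with passage as the unit and the others were not.

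The slopes differed between the arms for few genes. The slope was greater in NrESC for 7 and smaller for 10 (11.3% and 14.2% of all genes), led by Ndufa4l2, Cox4i2 and Cox7a2 above and Uqcrc1, Ndufa13 and Ndufs8 below. The smaller count was 4 without replicate 2 of ESC passage 12, 5 without replicate 1 of NrESC passage 0, and 6 without replicate 1 of ESC passage 8 or replicate 2 of NrESC passage 2. The greater count was 11 without replicate 2 of NrESC passage 4. With passage as the unit it was 0 in each direction in edgeR, where 0% of all genes had a greater and 0.0133% a smaller slope, and 1 gene was greater and 0 smaller at an unadjusted p under 0.05.

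Genes around the respiratory chain gave counts in both directions, to be read beside the 39.1% of all genes that rose and the 39.8% that fell. Of 31 assembly factors outside the symbol rule 11 rose and 13 fell, with a median of 0.008. Uqcc2, an assembly factor of complex III, averaged 42.0 ± 5.83 CPM in NrESC and 29.9 ± 6.19 CPM in ESC and rose by 0.50 (SE 0.022), and Cox14, which acts in making Cox1, rose by 0.38 (SE 0.024), each at 8 of 8 passages. Of 13 genes of the TCA cycle 7 rose and 5 fell: citrate synthase (Cs) rose by 0.11 (SE 0.0082) and malate dehydrogenase (Mdh2) fell by 0.11 (SE 0.0081). Of 17 electron and nucleotide carriers and their makers 5 rose and 7 fell. Coq2, an enzyme of ubiquinone synthesis, had 27.9 to 33.4 CPM in NrESC and 17.3 to 27.5 CPM in ESC, with no overlap, and rose by 0.55 (SE 0.020). Slc25a3, the phosphate carrier that feeds the ATP synthase, averaged 435.5 ± 31.4 CPM in NrESC and 500.8 ± 27.3 CPM in ESC and fell by 0.20 (SE 0.0077).

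Of 11 regulators of mitochondrial biogenesis 4 rose and 6 fell, with a median of -0.10. Nrf1, which binds the NRF1 core shown above, averaged 63.7 ± 4.2 CPM in NrESC and 73.5 ± 5.45 CPM in ESC and fell by 0.21 (SE 0.014, adjusted p = 8.65e-17 in edgeR). Pprc1, a coactivator of the PGC-1 family, averaged 233 ± 28.5 CPM in NrESC and 269 ± 18.6 CPM in ESC and fell by 0.22 (SE 0.0098). Both were lower at 8 of 8 passages, with the lowest value of each in NrESC at passage 8 (55.2 and 166.5 CPM).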

How the data were processed

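Polyadenylated RNA of 32 libraries (16 groups of 2) was measured by RNA-seq. Per the submitters' processing notes, STAR, RSEM, HTSeq 0.12.4, Cufflinks 2.2.1, DESeq2, edgeR and the mm9 build were used, with no roles given; annotation and strand handling are not given in the sources used here. The authors deposited 1 table of expected counts and 1 of TPM; the column names carry RSEM's ending. Reads shared by paralogs are divided by estimation in such counts, and 0.837% of values were fractional.

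Expected counts were rounded and tested with edgeR 4.0.16 in R 4.3.3 (TMM factors 0.979 to 1.03, filterByExpr on the 16 groups, quasi-likelihood tests with 16 residual degrees of freedom, Benjamini-Hochberg adjustment over 15036 genes, threshold 0.05). CPM are TMM-scaled. Alternatives were RLE scaling, DESeq2 1.42.0, no filter, a replicate block, limma 3.58.1 on log2(TPM + 1), passage as the unit (7 and 12 residual degrees of freedom for the mean and the slopes), leaving out passage 8 and leaving out each library. The tests were tested on simulated data. The genes and lists were chosen with earlier results of these data known. Genes were named by rule: the called genes with the highest and lowest differences per comparison (mean log2 CPM of at least 1), the highest and lowest level per complex, isoform sets, complex II, and the smallest p of each outside list. Libraries of a group differed by more than sampling noise. Library totals limit the precision of low genes; the SD over passages is not a replicate error. No batch or date is labelled. Values of 1 gene are not reported here, though it is in the counts.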

Additional observations from a re-analysis of the deposited data

Results flagged for a closer look

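Differences between the arms that changed with passage were common. The NrESC over ESC difference varied among the 8 passages for 67 of 90 genes by a joint test in edgeR, a share near that of all genes (69.4%). The step at passage 8 was greater in NrESC than in ESC for 48 genes and smaller for 6, beside 24.4% and 25.2% of all genes. The slope over passages was greater in NrESC for 7 and smaller for 10, no larger a share than over all genes (11.3% and 14.2%). With passage as the unit, 0 slopes differed in each direction in edgeR, with 1 greater and 0 smaller at an unadjusted p under 0.05.

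In all, 18 of the 90 genes were called higher at 1 passage or more and lower at another (share over all genes not counted). Among them the adjusted p of the varying difference in edgeR was 3.81e-25 for Ndufa4l2, 3.25e-12 for Ndufv3, 1.04e-10 for Cox4i2, 3.63e-09 for Atp5b, 7.17e-08 for Sdha, 2.68e-06 for Cox6b2 and 4.88e-06 for Ndufa13. It was 3.25e-05 for Ndufs5, whose counts are too low to read, 0.00188 for Uqcr10, 0.0043 for Cox7a2 and 0.00958 for Sdhd. For Atp5a1, Atp5c1, Atp5h, Atp5j2, Ndufa12, Ndufb10 and Uqcrfs1 it lay between 2.56e-06 and 0.0289. Cox6b2, for example, had 26.8 and 25.6 CPM in NrESC and 22.1 and 21.9 CPM in ESC at passage 0, a difference of 0.25 (adjusted p = 0.00413), and was lower with a call at passages 2, 4, 6 and 12.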

How the results depend on the processing

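With passage as the unit, 37 genes were higher and 8 lower in the mean, 0 higher and 5 lower by slope in NrESC, 0 and 0 by slope in ESC, and 0 and 0 by the slope difference. limma on TPM gave 25 lower in the mean, 7 lower at passage 0, 26 higher and 14 lower at passage 4, and 11 lower at passage 14. In that setting 2961 of all genes were higher and 5269 lower at passage 4, with a median difference over all genes of -0.0547. DESeq2 gave 4 lower at passage 14, and DESeq2 and RLE scaling 6 each with a smaller slope in NrESC; without a filter 11 had a greater one. Summed CPM gave 0.106 for complex III and 0.00943 for complex V, since CPM is not corrected for length. Atp5b (-0.00107) and Cox6b1 (-0.0058) reversed in limma. Apart from summed CPM, whose construction differs, the cause was not tested.

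Leaving out 1 library gave 4 to 8 higher slopes in NrESC (8 without replicate 2 of passage 4), 5 to 11 greater and 4 to 13 smaller slopes in NrESC than in ESC, 18 to 38 lower at the ESC step of passage 8, 7 to 14 lower at passage 0, 27 to 50 higher at passage 4, 9 to 23 higher at passage 6, and 17 to 29 higher and 4 to 10 lower at passage 12. The replicate numbers were not used to pair samples in the main tests. Between arms, the deviations of replicates correlated at 0.492 at passage 6 and 0.519 at passage 12. At the other passages the correlations lay between -0.213 and 0.0328. With the replicate block 57 genes were higher and 16 lower in the mean, with no named call changed and every count within 1.5 times. Of the named gene results, 32 of 69 lost their call with passage as the unit, 6 of 95 in DESeq2 and 2 of 95 with RLE scaling. DESeq2 gave no joint test over passages. The spread between cultures is unknown, and low counts limit Ndufs5, Atp5e and Cox6a2.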
